A study of Drosophila melanogaster with 3 samples.

Results

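The genes described here are the small nuclear RNA (snRNA) and small nucleolar RNA (snoRNA) genes of Drosophila melanogaster, taken by symbol from the Ensembl models of dm6 as every gene whose name starts with snRNA: or snoRNA:. The rule found 289 genes, 32 snRNA and 257 snoRNA genes, among 18164 annotated genes on 6 chromosome arms. Each was read for binding of the tagged transcription factor Scute, by whether the highest point of a binding region (its summit) lay within 500 bp of the gene.

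The study was a chromatin immunoprecipitation with sequencing (ChIP-seq) of a single group in 3 biological replicates. Each replicate was a collection of whole embryos of both sexes, 0 to 14 h of age, from a transgenic line that stably expressed Scute (sc) with GFP fused to its C terminus, precipitated with an antibody against GFP. All replicates came from this line, and the labels name no untagged or untreated group; a control alignment used by the authors was not analysed here. The authors deposited a list of 30000 regions for each replicate, a list of 30000 from the replicates pooled, and a thresholded set of 3612 regions that passed the irreproducible discovery rate procedure. These 3612 were the 3612 regions of highest signal in the pooled list, so a pooled rank of 3612 or better means thresholded. The q-value is the deposited false discovery estimate of a region, and 6504 pooled regions had a q-value under 5%. Since whole embryos were used, binding in few cells and weaker binding in many cannot be told apart.

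Small nuclear RNAs form the core of the spliceosome, which removes introns from pre-mRNA; 7SK holds the elongation factor P-TEFb inactive, and U7 serves histone mRNA processing. Fly snRNA genes are short units with their own promoter, built around an upstream proximal sequence element bound by the SNAPc complex (PBP in flies), and transcribed by RNA polymerase III (U6, U6atac and 7SK) or polymerase II (the others). Small nucleolar RNAs guide the chemical modification of ribosomal and other RNAs, box C/D types directing ribose methylation (names with Me) and box H/ACA types directing pseudouridylation (names with Psi), and most fly snoRNAs are cut out of the introns of host genes. Scute is a proneural basic helix-loop-helix factor whose partner is Daughterless, and it acts through E-box sites.

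Of the 289 genes, 25 were free-standing, overlapping no other gene body (14 snRNA and 11 snoRNA genes). Another 183 lay wholly in an intron of a protein-coding host on the same strand (11 and 172), 47 snoRNA genes lay in a noncoding host, 15 lay in an intron of a gene on the opposite strand, and 19 overlapped a gene in other ways. The windows of neighbouring genes often overlapped, so the 289 genes formed 133 separate loci, with up to 16 genes in a locus, and genes of a locus share regions.

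The starts of the snRNA genes carry the promoter element, and those of the U1 genes are shown first because U1 offers copies of nearly the same RNA in free-standing and intronic places. U1 RNA recognises the 5′ splice site. Each line gives the dm6 (Release 6) genome sequence from 80 bp before to 20 bp after the annotated start (the first 20 bases of the gene end the line), with the letters AATTCNCAA of the element in capitals. The first 3 genes are free-standing and had a region of q under 5%, and the last 2 lie in introns of CG34355 and had none.
snRNA:U1:21D, chr2L:901635-901734, minus strand: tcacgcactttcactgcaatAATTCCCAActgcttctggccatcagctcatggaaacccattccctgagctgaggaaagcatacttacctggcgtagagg
snRNA:U1:82Eb, chr3R:4948077-4948176, minus strand: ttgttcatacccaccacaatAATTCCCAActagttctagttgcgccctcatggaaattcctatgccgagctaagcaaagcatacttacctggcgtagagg
snRNA:U1:95Ca, chr3R:23859611-23859710, minus strand: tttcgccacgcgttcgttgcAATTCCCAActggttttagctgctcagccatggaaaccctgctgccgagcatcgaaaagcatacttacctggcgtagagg
snRNA:U1:95Cb, chr3R:23827790-23827889, plus strand: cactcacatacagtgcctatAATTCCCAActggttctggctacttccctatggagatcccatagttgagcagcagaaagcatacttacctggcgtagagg
snRNA:U1:95Cc, chr3R:23826254-23826353, plus strand: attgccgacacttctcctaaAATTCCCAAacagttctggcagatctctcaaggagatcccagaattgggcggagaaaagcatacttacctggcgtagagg

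The next 4 starts are those of free-standing genes of other kinds, 7SKa with the only thresholded snRNA region, U2:34ABb and U5:63BC with weaker regions, and U6:96Ab with a region of q above 5%. The element begins between -63 and -60 in all of them.
snRNA:7SKa, chr3R:7474977-7475076, minus strand: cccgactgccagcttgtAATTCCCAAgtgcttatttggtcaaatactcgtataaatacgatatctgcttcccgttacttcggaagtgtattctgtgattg
snRNA:U2:34ABb, chr2L:13215759-13215858, plus strand: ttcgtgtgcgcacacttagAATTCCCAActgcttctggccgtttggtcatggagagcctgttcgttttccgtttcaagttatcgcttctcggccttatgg
snRNA:U5:63BC, chr3L:3090721-3090820, plus strand: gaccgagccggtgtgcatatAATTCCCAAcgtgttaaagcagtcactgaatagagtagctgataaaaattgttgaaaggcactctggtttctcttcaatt
snRNA:U6:96Ab, chr3R:24556612-24556711, plus strand: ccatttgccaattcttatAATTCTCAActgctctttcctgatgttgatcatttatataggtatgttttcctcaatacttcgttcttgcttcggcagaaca

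Searched on both strands from 250 bp before to 50 bp after the start, AATTCNCAA was present in 28 of 32 snRNA promoters (87.5%), in 427 of 18164 promoters of all annotated genes (2.35%) and in 4.28% of snoRNA promoters. In 27 of the 32 it stood on the gene's strand with its first base between -66 and -57 from the start, at a median of -60. A shorter form, ATTCNCAA, was searched after the sequences had been read; between -80 and -40 on the gene's strand it was found in 31 of 32 snRNA genes and in 0.600% of all promoters, and the exception was 7SKb. The element did not separate genes by class, since the 9-letter form was present in 13 of 14 free-standing snRNA genes and in 15 of the other 18. Of the 13, U5:34A had these letters only on the opposite strand, at -234, away from the place of the element. E-box letters CANNTG were in 28 of 32 snRNA promoters and in 76.8% of all promoters. The achaete-scute site GCAGCTG was in 0 of 32 snRNA promoters and in 6.16% of all promoters, and the related GCAGGTG was in 1 of 32 (3.13%) and in 2.74% of all. The absence of a match says only that these letters are not in the window.

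Within 500 bp, the small RNA genes taken as a whole carried thresholded regions about as often as other short genes did, but this depended on the window. A thresholded summit lay within 500 bp of 12 of 289 genes, 4.15% (95% Wilson interval 2.39 to 7.12), 1 of them an snRNA gene and 11 of them snoRNA genes. The same share was 15.9% over all annotated genes, 18.3% over protein-coding genes, 2.41% over tRNA genes and 4.16% over the 2426 other genes of at most 500 bp, and the members' share lies at the last of these. With a window of 250 bp the members' share was 1.38% and that of the other short genes 2.89%, and with 1000 bp they were 13.1% and 6.60%. In the replicates, with the 3612 highest regions of each, it was 4.50%, 4.50% and 4.15% for the members and 4.53%, 3.92% and 4.08% for the other short genes. The mean was 4.38% ± 0.200 (SD, n = 3) for the members, against 4.18% ± 0.320 for the other short genes. Any pooled summit at all lay near 83 members (28.7%), near 50.5% of all annotated genes and near 29.1% of the other short genes.

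The classes differed more than this total shows. A pooled region of q under 5% lay within 500 bp of 25 members (8.65%), where the background was 23.7% of all annotated genes, 6.90% of tRNA genes and 7.42% of the other short genes. Among the 25 free-standing members 11 had one, 44.0% (interval 26.7 to 62.9). The 1012 free-standing genes of at most 500 bp that are no members gave 78, or 7.71% (interval 6.22 to 9.52). Of the 183 members in introns of protein-coding hosts 6 had one, 3.28%. That count depended on the window. With 1000 bp it was 36 of 183, above the 11.995% of the other short genes, while the free-standing count stayed at 11. By replicate the free-standing share was 16%, 24% and 32% (mean 24% ± 8, SD, n = 3). The host-intron share was 3.10% ± 0.835 and that of the other short genes 6.54% ± 0.742, both below the free-standing share in each replicate. Over all annotated genes it was 20.3%, 24.1% and 23.0% (mean 22.5% ± 1.93). The free-standing share was below that in replicate 1, about equal in replicate 2 and above it in replicate 3. The 11 free-standing genes shared 9 distinct regions, and counted as loci they were 9 of 21, against 145 of 1447 loci (10.02%) of the other short genes. This locus background and the replicate share of 6.54% include short genes that are not free-standing. These intervals and spreads describe counting error over genes and the spread of the replicates, and no test between classes was made.

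**Figure D1:**
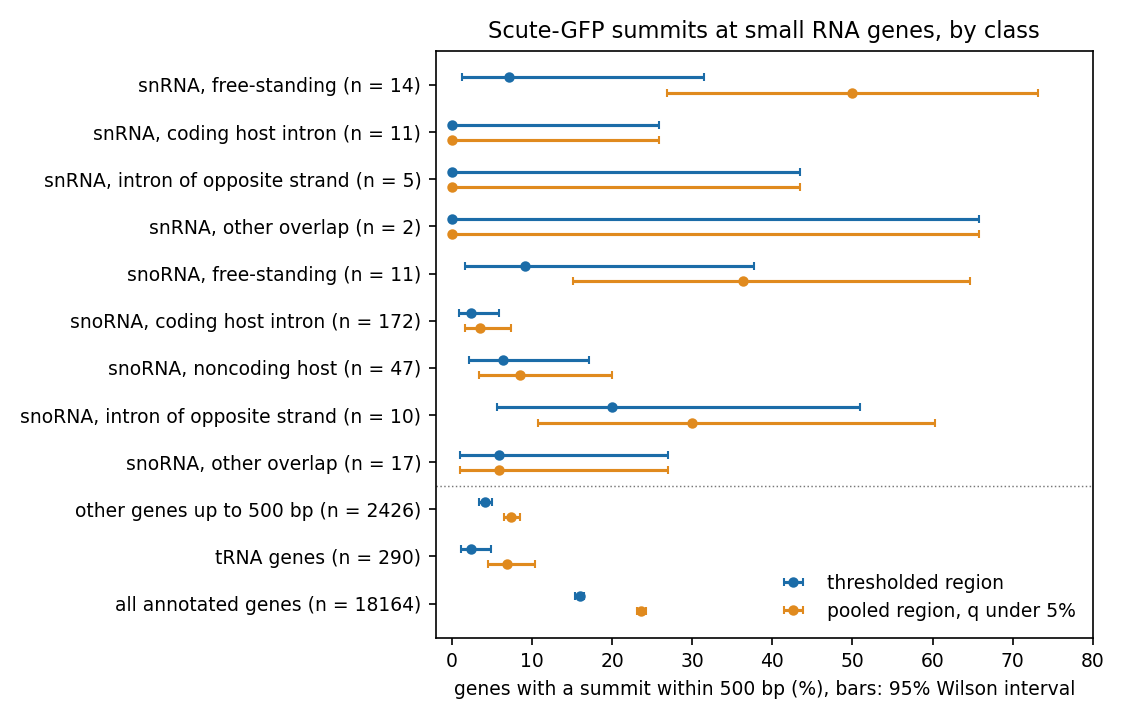
Share of genes with a summit within 500 bp in percent (x axis), for each class of small RNA gene and for 3 backgrounds below the dotted line; blue points use the thresholded set, orange points the pooled regions of q under 5%, and bars are 95% Wilson intervals. The free-standing classes stand at 50% (snRNA) and 36.4% (snoRNA) in orange, while other genes up to 500 bp stand at 7.42%.

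Most free-standing regions fell below the authors' threshold. Thresholded summits were at 2 of the 25 free-standing genes (8%), snRNA:7SKa and snoRNA:185. The share was 4.25% over the free-standing short genes that are no members and 15.9% over all annotated genes. In single replicates, 1 of 25, snoRNA:185, had a region of q under 5% in all 3. This was so for 3.92% of the other short genes and 15.8% of all annotated genes. Without replicate 1 or without replicate 2, keeping regions found among the highest of both others, the count of 2 became 0, as replicate 3 ranked the 2 regions 6494 and 3682. In 8 of the 9 regions the summit was nearer the small RNA gene than any protein-coding start, and in 6 it lay inside a gene. The window fixed part of this count. At U1:21D, U1:82Eb, U1:95Ca, U5:63BC and snoRNA:185 the nearest coding start was 2847 to 30422 bp from the gene. A summit within 500 bp of those genes could not be nearer a coding start.

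**Figure D2:**
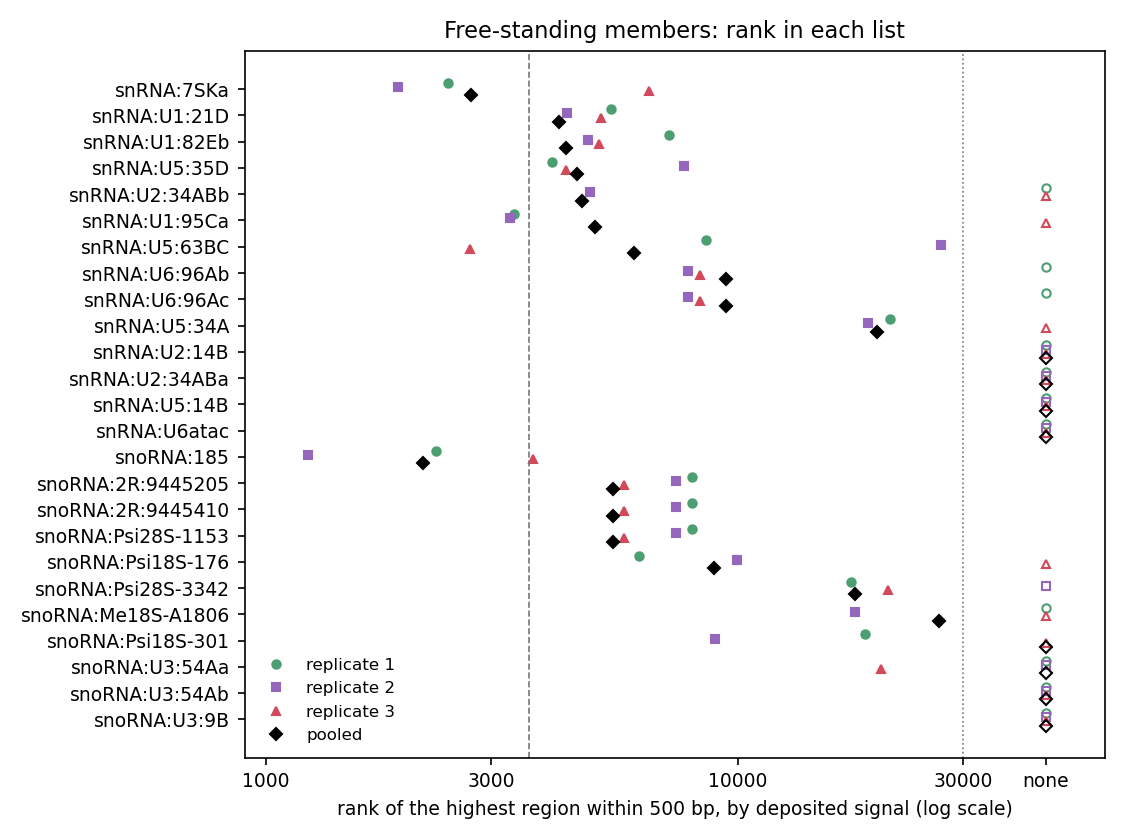
Rank of the highest region within 500 bp of each of the 25 free-standing genes (x axis, log scale, smaller is stronger) in the 3 replicates (coloured symbols) and the pooled list (black diamonds); the dashed line is rank 3612, the dotted line the end of the lists at 30000, and open symbols on the right mark genes without a summit. Pooled ranks run from 2145 for snoRNA:185 to 26660 for snoRNA:Me18S-A1806, and 8 genes have no pooled summit.

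Among snRNA genes the regions of q under 5% were all at free-standing copies, 7 of 14 (50%, interval 26.8 to 73.2). None of the other 18 snRNA genes had one. The share was 7.42% over the other short genes and 23.7% over all annotated genes. For the 11 snRNA genes in host introns the interval was 0 to 25.9%, which holds both, so a count of 0 cannot be told from either. The best of those 18 was U4:39B in Atg18b, a copy of the RNA that pairs with U6, with a pooled rank of 8395 and a q-value of 13.5%. By kind, the count was 3 of 5 for U1, 2 of 7 for U5, 1 of 6 for U2, 1 of 2 for 7SK, and 0 of 3 for both U4 and U6. The single genes LU, U4atac, U6atac, U7, U11 and U12 had none. Genes of the polymerase III kinds had 1 of 6 and those of polymerase II 6 of 26. A summit of any strength in all 3 replicates was found at 7 of the 32 genes, and 12 had none in any replicate or in the pooled list. These counts were not made over other genes. A pooled summit of any strength lay near 18 of the 32 (56.3%), against 50.5% of all annotated genes and 29.1% of the other short genes.

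The highest snRNA region was at 7SKa (FBgn0065099, chr3R:7474553-7474996, minus strand), which encodes one of the pair of annotated 7SK RNAs. Its region, chr3R:7474432-7474861, had a pooled signal of 178 and a pooled rank of 2719, and its ranks in replicates 1, 2 and 3 were 2429, 1902 and 6494. Replicate 3 stood below the others, with a q-value of 5.14% against 0.185% and 0.0190%. The summit lay inside the gene, 349 bp downstream of the start in the pooled list and 347, 249 and 346 bp downstream in the replicates, while the promoter element begins at -63. The other 7SK gene, 7SKb, lies in an intron of CG4374 on the opposite strand and had a pooled rank of 12097 (q-value 34.1%), with replicate ranks of 20935, 17590 and 10062. The 2 genes were 49.7% identical.

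The 3 free-standing U1 genes had regions of similar strength, and the 2 intronic copies did not. At U1:21D (chr2L:901491-901654) the pooled rank was 4172, the q-value 0.228% and the replicate ranks 5395, 4343 and 5131. At U1:82Eb (chr3R:4947933-4948096) the pooled rank was 4312, the q-value 0.267% and the replicate ranks 7140, 4811 and 5066. Replicate 1 was the weakest of the 3 at both genes, with q-values of 7.74% and 16.7%, and the other replicates were under 5% at both. At U1:95Ca (chr3R:23859467-23859630) the pooled rank was 4981 with a q-value of 1.09%, and the ranks were 3346 and 3292 in replicates 1 and 2, with no summit in replicate 3. The pooled summits stood 8, 11 and 79 bp downstream of the 3 starts, inside the genes.

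The intronic copies U1:95Cb and U1:95Cc had pooled ranks of 20603 and 23035, with q-values of 68.3% and 74.6%. In the replicates U1:95Cb had no summit, 19212 and 24983, and U1:95Cc had 26660, no summit and 22604. The U1 gene sequences were 98.2% to 100% identical in pairs (median 99.4%), and their 250 bp upstream were 52.2% to 59.9% identical. Reads from inside nearly identical copies cannot always be placed, and how the authors placed them is not given in the sources used here, so a region inside one copy may hold reads of another. The same limit holds for the U2 genes (98.4% to 100% identical), for the 3 identical U6 genes and less for U5 (78.3% to 96.1%).

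U2 RNA binds the branch point of the intron, and U5 aligns the exons. Of 6 U2 genes only U2:34ABb had a region of q under 5% (pooled rank 4675, q-value 0.759%), with its summit 24 bp into the gene. It rested on 1 replicate, with a rank of 4864 in replicate 2 and no summit in replicates 1 and 3. Near U5:35D the pooled rank was 4571 (q-value 0.624%) and the replicate ranks 4031, 7701 and 4320. Its summit was 379 bp past the end of the gene and 100 bp from the start of ND-B17, a subunit gene of mitochondrial complex I, and it was the only one of the 9 free-standing regions nearer to a coding start. Near U5:63BC the pooled rank was 6026 (q-value 3.43%), the summit stood 64 bp past the gene, and the replicates spread widely, at 8555, 27000 and 2701.

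U6, the catalytic RNA of the spliceosome, is encoded in a cluster of 3 genes on 3R. The free-standing copies U6:96Ab and U6:96Ac shared a region between them with a pooled rank of 9434 and a q-value of 19.3%. It ranked 7850 and 8321 in replicates 2 and 3 and had no summit in replicate 1. The third copy, U6:96Aa in an intron of Esyt2, had no summit in any list.

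**Figure D3:**
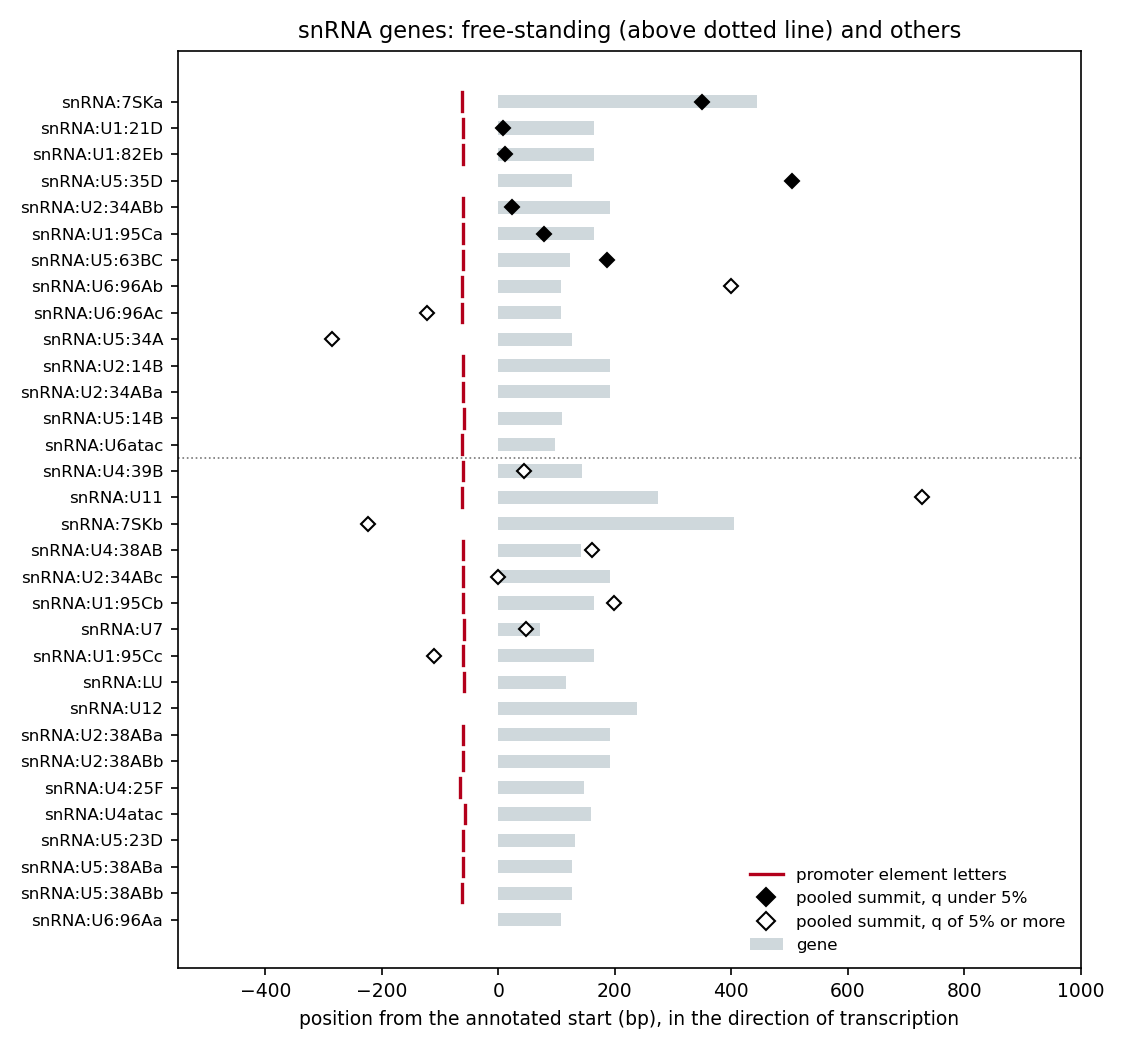
Position of the highest pooled summit (diamonds, filled where q is under 5%) and of the promoter element (red ticks, 9-letter form) relative to the annotated start in bp (x axis, in the direction of transcription) for the 32 snRNA genes, grey bars being the genes; the 14 free-standing genes are above the dotted line. All filled diamonds are above the line, and the 27 red ticks stand between -66 and -57 in both groups.

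The summit windows of the free-standing regions (100 bp on each side of the summit) were read for the same letters. AATTCNCAA was in 3 of the 9 windows, those of U1:21D, U1:82Eb and U2:34ABb, and in 1.86% of the windows of all pooled regions of q under 5%. The window of such a region covers the element only where the summit lies near the start, as it does at these 3 genes. CANNTG was in 6 of 9 windows against 60.7% of all. The achaete-scute site GCAGCTG was in 0 of 9 against 3.87%, its relative GCAGGTG in 0 of 9 against 1.34%, and the E-box CATATG in 0 of 9 against 8.0%. With 9 windows, a count of 0 cannot be told from shares this low.

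Free-standing snoRNA genes gave 4 of 11 with a region of q under 5% (36.4%, interval 15.2 to 64.6). The strongest was at snoRNA:185 (chr2R:19727098-19727152, minus strand), a gene of 55 bp whose region had a pooled rank of 2145 and a pooled signal of 207. Its replicate ranks were 2286, 1224 and 3682, all with q-values under 5%, and the summit was 20 bp upstream of the start and 13096 bp from the nearest coding start, that of CG8517. The other 3 genes, snoRNA:2R:9445205, snoRNA:2R:9445410 and snoRNA:Psi28S-1153, lie side by side on 2R and shared a region of pooled rank 5424 (q-value 1.93%). That region ranked 8011, 7385 and 5742 in the replicates and had a q-value under 5% in replicate 3 only, which gave the snoRNA share of 36.4% there against 9.09% in replicates 1 and 2. Its summit lay 41 bp inside snoRNA:2R:9445410, the furthest upstream of the 3.

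The U3 genes encode the box C/D RNA needed for early cleavage of the ribosomal RNA precursor rather than for modification, and they have their own promoters. None of the free-standing U3 genes 54Aa, 54Ab and 9B had a pooled summit, and the only replicate summit was a rank of 20163 at U3:54Aa in replicate 3. U3:9B carried AATTCNCAA at -61, as snoRNA:Me18S-A1806 did at -68, and the latter had a pooled rank of 26660 with a q-value of 81.5%. The remaining free-standing genes Psi18S-176, Psi28S-3342 and Psi18S-301 had pooled ranks of 8915 and 17743 and no pooled summit, in that order.

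Where a small RNA gene inside a host on the same strand had a thresholded summit nearby, the summit lay nearer the host's start than the small RNA gene. Thresholded summits were within 500 bp of 4 of the 183 members in introns of protein-coding hosts (2.19%), at hosts RpL14, RpL3, RpL17 and RpS12, all ribosomal protein genes. In all 4 the summit was nearer a start of the host than the snoRNA, and it lay inside the snoRNA in none. With hosts on either strand the count was 6 of 198, and the added pair, both in egr, had a summit 3408 bp from the host start. With q under 5% this was so for 5 of 6. The exception, snoRNA:Or-ACA9 in AdamTS-A, a secreted metalloprotease gene, had a summit 225 bp upstream of it and 3320 bp from the nearest host start, with a pooled rank of 5027 and replicate ranks of 7254, 4836 and 7707. In noncoding hosts the summit was nearer the host start at 3 of 3 thresholded members and at 4 of 4 with q under 5%.

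**Figure D4:**
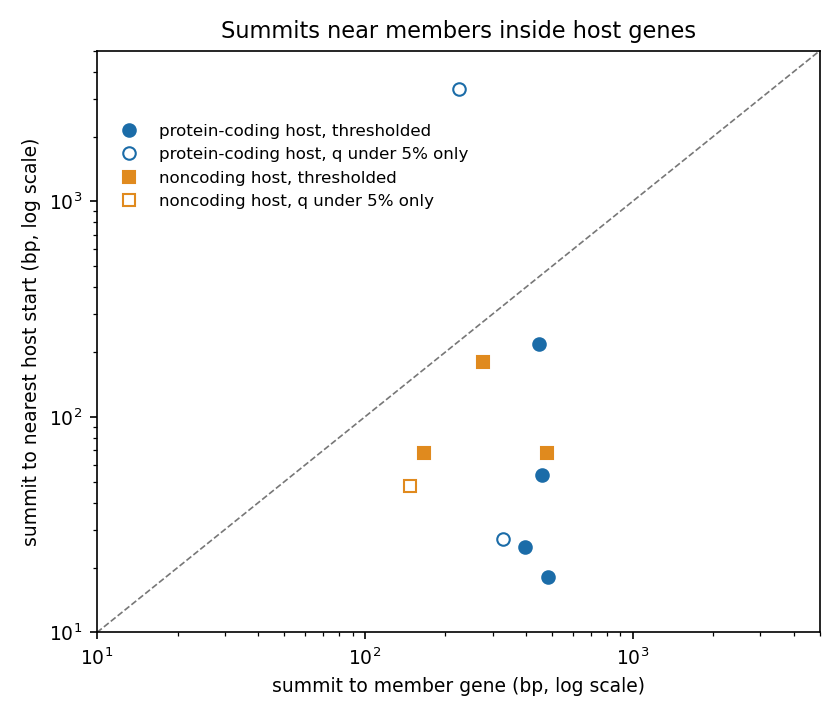
Distance of the summit from the small RNA gene (x axis, bp, log scale) and from the nearest start of its host (y axis, bp, log scale) for members inside protein-coding hosts (circles) and noncoding hosts (squares); filled symbols are thresholded and open ones have q under 5% only. Points below the dashed line are nearer the host start, and 9 of the 10 are there.

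The few thresholded summits near intronic members were all at members up to 1000 bp from a host start, though most such members had none. Thresholded summits were near 3 of 19 members at most 500 bp from a host start, 1 of 30 over 500 and up to 1000 bp, 0 of 62 over 1000 and up to 2000 bp and 0 of 72 further away. With q under 5% the counts in these groups were 4, 1, 0 and 1. The median distance of the 183 members was 1582 bp (range 108 to 50634). The first group lies within the same 500 bp as the host start, so a summit at the start falls in its window by place alone.

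The 3 highest of the 11 thresholded regions near small RNA genes were at the starts of RpL28, Uhg4 and RpL14, and the fourth, in egr, was far from any coding start. The highest was near snoRNA:Or-CD11a, an orphan box C/D gene that overlaps RpL28, with a region at chr3L:3222899-3223153, a pooled signal of 600 and a pooled rank of 291. It ranked 188, 418 and 358 in the replicates, and its summit was 471 bp upstream of the snoRNA and 52 bp from the start of RpL28. Near snoRNA:U49:66Da the region of pooled rank 448 ranked 526, 296 and 689, with its summit 18 bp from the start of RpL14. Near snoRNA:Psi28S-1232 the region of pooled rank 2004 ranked 1664, 2220 and 2232, with its summit 25 bp from the start of RpL17.

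At the ribosomal protein genes named next, the regions near members showed more spread between replicates. The region near snoRNA:Me18S-C1096, 54 bp from the start of RpL3, had a pooled rank of 1669 and replicate ranks of 5092, 1119 and 2013, so replicate 1 was below the highest 3612. RpS12, the host of snoRNA:Me28S-A774b, had a pair of thresholded regions, at pooled ranks of 2095 (219 bp from the start) and 3399 (17 bp). The first ranked 3551 and 2193 in replicates 1 and 3 and the second 1592 and 4538 in replicates 2 and 3. Near snoRNA:Psi18S-1275, 27 bp from the start of RpS29, the pooled rank was 4108 with a q-value of 0.207%, and replicate ranks were 4265, 3889 and 6434. Near snoRNA:Me18S-G1358c, which overlaps RpL15, the replicates gave 4023, 8719 and 4133 and the pooled list 7015, with a q-value of 7.12%.

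The sequences at 4 of these host starts are shown because they hold the motifs counted next. Each line is the 151 bases of the plus strand centred on the summit in dm6; capitals mark TATCGATA, the DNA replication-related element, and the E-box letters CANNTG. The first line holds only TATCGATA, the second both, and the last 2 only E-box letters.
snoRNA:Or-CD11a, RpL28 start, chr3L:3222937-3223087, plus strand: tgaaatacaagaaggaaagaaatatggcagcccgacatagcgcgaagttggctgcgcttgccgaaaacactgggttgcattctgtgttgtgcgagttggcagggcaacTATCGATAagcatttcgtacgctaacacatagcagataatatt
snoRNA:Me28S-A774b, RpS12 start, second region, chr3L:13023260-13023410, plus strand: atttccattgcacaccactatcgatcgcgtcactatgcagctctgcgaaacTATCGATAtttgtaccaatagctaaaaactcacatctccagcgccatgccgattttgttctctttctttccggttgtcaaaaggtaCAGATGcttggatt
snoRNA:U49:66Da, RpL14 start, chr3L:8600913-8601063, plus strand: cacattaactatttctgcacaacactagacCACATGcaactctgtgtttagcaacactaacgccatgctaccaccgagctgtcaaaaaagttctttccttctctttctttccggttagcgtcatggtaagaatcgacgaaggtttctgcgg
snoRNA:Psi28S-1232, RpL17 start, chrX:6744138-6744288, plus strand: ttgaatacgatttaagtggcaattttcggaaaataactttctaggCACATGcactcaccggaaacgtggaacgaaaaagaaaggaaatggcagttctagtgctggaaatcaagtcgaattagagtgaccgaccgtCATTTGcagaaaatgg

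Over the 11 distinct thresholded regions near members, read in windows of 100 bp on each side, TATCGATA was in 2 (18.2%) and in 1.80% of all 3612 thresholded windows. Both were at starts of ribosomal protein genes, RpL28 and RpS12. In promoters, from 250 bp before to 50 bp after the start, TATCGATA was in 9.36% of protein-coding genes and 1.17% of snoRNA genes. CANNTG was in 7 of 11 (63.6%) against 60.1%. The site GCAGCTG was in 0 of 11 against 3.52%, GCAGGTG in 0 of 11 against 1.19%, and the E-box CATATG in 0 of 11 against 8.44%. With 11 windows, a count of 0 cannot be told from shares this low. The promoter element was in 0 of 11.

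Noncoding hosts of the Uhg type make spliced RNAs whose introns hold snoRNAs. The region at the start of Uhg4 (pooled rank 417; 384, 393 and 562 in the replicates) was 68 bp from the start and within 500 bp of snoRNA:Psi28S-2949 and snoRNA:Or-aca5, the 2 of its 7 snoRNAs nearest to the start. The region near snoRNA:Me18S-A1576 (pooled rank 2073; 2213, 2374 and 2326) was 180 bp from the start of Uhg2 and 104 bp from that of Bka, so the starts of 2 genes share it. At snoRNA:Or-aca2 in CR33222 the pooled rank was 6246 with a q-value of 4.06%, and the replicates spread from 3832 to 13072. Uhg8 had a thresholded region 324 bp from a start (pooled rank 1776), with ranks of 1492 and 1942 in replicates 1 and 2 and no matched region in replicate 3. Uhg1, with 16 snoRNA genes, and Uhg5, with 11, had no thresholded summit at a start. Of the 9 noncoding hosts, 3 had one (33.3%, interval 12.1 to 64.6).

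Another region far from coding starts was found in egr, which encodes the fly tumour necrosis factor Eiger. It had a pooled rank of 1516, replicate ranks of 1380, 1216 and 1944, and lay between snoRNA:Or-ACA6 and snoRNA:Or-CD13, which are on the opposite strand to egr. Its summit was 449 and 479 bp from the 2 genes and 3395 bp from the nearest coding start, that of CG2269. Over all 12 members with a thresholded summit, the summit lay inside the small RNA gene in 1, snRNA:7SKa.

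Host genes themselves carried regions at their starts often. Of the 74 protein-coding hosts of same-strand intronic members, 33 (44.6%, interval 33.8 to 55.9) had a thresholded summit within 500 bp of a start, where the share over all protein-coding genes was 12.4%. With q under 5% it was 47 of 74 (63.5%) against 19.0%. Leaving out a replicate gave 29 to 31 hosts. Hosts with ribosomal protein symbols gave 20 of 27 (74.1%), ribosomal protein genes that host no member 36 of 65 (55.4%), and the other hosts 13 of 47 (27.7%). The median distance from the summit to the host start was 63 bp (range 4 to 407). That ribosomal protein genes carry regions was already known from these data, and the hosts include many of them.

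**Figure D5:**
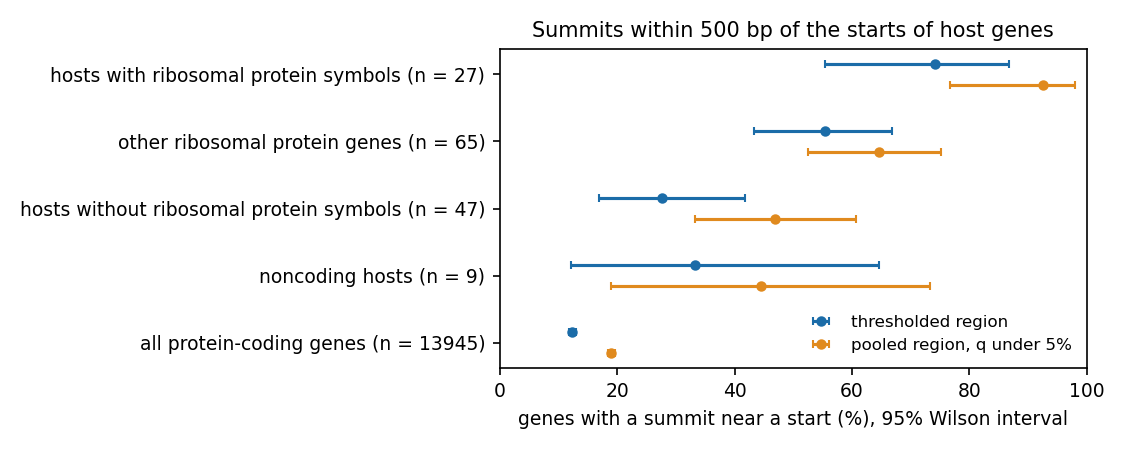
Share of host genes with a summit within 500 bp of a transcript start in percent (x axis), for hosts with and without ribosomal protein symbols, ribosomal protein genes that are no hosts, noncoding hosts and all protein-coding genes; blue is the thresholded set, orange the pooled regions of q under 5%, bars are 95% Wilson intervals. Ribosomal hosts stand at 74.1% and all protein-coding genes at 12.4% in blue.

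Most small RNA genes in hosts with a region at the start had no thresholded summit of their own nearby. The 36 hosts with a thresholded start, 33 coding and 3 noncoding, held 97 members, and 7 of these 97 (7.22%) had a thresholded summit within 500 bp, against 4.15% of all members and 4.16% of the other short genes. These hosts were chosen for a summit at a start, and at all 7 members the summit was nearer the host start. The 7.22% is therefore not independent of that choice. RpS5a is an example, a ribosomal protein gene with 14 members and a region 70 bp from its start (pooled rank 857; 685, 991 and 902 in the replicates), none of whose members had a thresholded summit in the window. Of the 5 hosts with the most members, RpS5a was the only one with a thresholded start. The others were Arpc2, an actin nucleation subunit gene with 17 members, Uhg1 with 16, dom, a chromatin remodeller gene with 15, and Uhg5 with 11.

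The genes that make and assemble the small RNAs were read from lists of 54 names, of which 52 were matched. Thresholded summits lay within 500 bp of 11 of the 52 (21.2%), against 18.3% of all protein-coding genes, a share near the background. The Integrator complex, which cuts the 3′ ends of snRNAs, had 6 of 14: IntS4, omd, IntS6, defl, IntS9 and IntS10. In 3 of these the summit was nearer another gene's start, namely Rtel1 for IntS6, nbs for defl and CG32264 for IntS10. Promoter factors for snRNA genes had 1 of 6, Brf, a polymerase III initiation factor (pooled rank 431; 346, 699 and 289), and its summit was 23 bp from the start of sds22. The little elongation complex had 1 of 3, Ell (annotated as Su(Tpl)), with the summit 6137 bp from its nearest start. The snRNP proteins had 3 of 7, snRNP-U1-C, Prp31 and hoip, and the summit at Prp31 was 294 bp from its start and 244 bp from that of Msh6. Core snoRNP proteins had 1 of 9, again hoip, whose summit was 92 bp from the start of pelo, while Sm and Lsm proteins and the SMN and Cajal body list had 0 of 7 each.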

How the data were processed

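The 3 replicates were analysed as 1 group from region lists in dm6. The authors deposited region lists for each replicate and for the pooled replicates, and a thresholded set from the irreproducible discovery rate procedure, per the notes deposited with the samples. How the reads were aligned and which program called the regions is not given in the sources used here. The signal of each region is the authors' deposited value, on a scale of its own list that is not normalized between libraries, so regions were compared by rank within a list. Each region also has a deposited −log10 q-value from the authors, from which q-values in percent were computed. Read depth is unknown. Lists in dm3 were not used.

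Members, classes and hosts came from Ensembl release 115 models on 6 arms, without 5809 transposable element genes. A gene's region was the highest-signal region with a summit within 500 bp of the gene body. Replicate regions were matched to thresholded ones within 250 bp. Shares carry 95% Wilson intervals, which cover counting error over genes only, and replicate shares carry the SD. Sequences were read from the Release 6 genome. Genes were named by rule: every snRNA gene by kind, the 15 snoRNA genes with the lowest mean of the 3 replicate ranks (at most 3 per host or locus), the 5 hosts with most members, and listed pathway genes with a thresholded summit; other snoRNA genes were named after their values were seen. Members, lists and rules were chosen with earlier results of these data known. The share over free-standing short genes that are no members was added after the members' counts were seen. Counting was tested on simulated data. Python 3.11.15, numpy 2.4.6, pandas 2.3.3, scipy 1.17.1 and matplotlib 3.10.9 were used.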

Additional observations from a re-analysis of the deposited data

How the results depend on the processing

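Counts of genes near thresholded summits depended on the window and the threshold. With 250 bp in place of 500 bp the count of 12 members became 4, of 11 snoRNA genes 3 and of 4 host-intron members 1, and the host-intron count with q under 5% went from 6 to 2. With 1000 bp they became 38, 36, 22 and 36, and 2 snRNA genes were counted in place of 1. The share of other short genes rose to 6.60% for thresholded summits and to 11.995% for q under 5%. With q under 5% the host-intron share was below that of the other short genes at 250 and 500 bp. At 1000 bp, with 36 of 183, the host-intron share was above theirs and below the 27.2% of all annotated genes. Summits nearer the host start were then 1 of 1 at 250 bp and 21 of 22 at 1000 bp. With only thresholded regions at or above the median signal of the set, 7 members were counted, 7 snoRNA, 0 snRNA, 0 free-standing and 2 host-intron genes. That was 2.42% of members, against 2.31% of the other short genes. With pooled regions of q under 5% the counts were 25, 18, 7 and 11 for all, snoRNA, snRNA and free-standing members. Leaving out each replicate in turn gave 9 to 10 members, 9 snoRNA genes each time, 0 to 1 snRNA genes, 0 to 2 free-standing genes and 2 to 3 host-intron genes, and the cause was not tested for any of these.

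The free-standing count of 11 with q under 5% was 9 at 250 bp, 11 at 1000 bp and 9 of 21 as loci; these alternatives, and those for the host starts (24 to 47 of 74), were chosen after seeing the data. Of the 22 named genes with a mean rank, the nearest summit in place of the highest moved 5 and ranking by q-value moved 6. No paired analysis was possible because the replicates form a single group. Unknown depth, 3 replicates, near-identical gene copies and the unanalysed control limit all values.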
